A study of Mus musculus with 6 samples.

Results

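Fibroblast growth factor (FGF) receptor and feedback genes were followed in RNA of mouse tooth germs. The set holds 10 genes chosen by symbol: the receptors Fgfr1, Fgfr2, Fgfr3 and Fgfr4, the Sprouty genes Spry1, Spry2 and Spry4, the phosphatase gene Dusp6 and the transcription factor genes Etv4 and Etv5. All 10 of them were present among 23420 symbols, and all 10 passed the filter on low counts that left 15284 genes for testing. Tooth germs of C57BL/6 embryos at E15.5 (embryonic age) were compared between 3 libraries of wild-type and 3 libraries of Smad7-/- genotype. Smad7 encodes an inhibitory SMAD that restrains signalling by TGF-beta and BMP receptors. The labels do not say which part of Smad7 was removed, whether germs of several embryos were pooled, or whether each library of a group is a separate animal. The p-values therefore describe the spread among libraries, which may be technical.

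FGF ligands bind receptor tyrosine kinases together with heparan sulfate and switch on the RAS-ERK cascade. ERK activity raises transcription of Etv4 and Etv5, which encode ETS-family transcription factors, and of Spry and Dusp6 genes, whose products in turn damp the cascade. The transcripts of these targets are therefore widely read as a gauge of FGF activity. In the developing tooth, FGFs pass between epithelium and mesenchyme. The epithelial form of Fgfr2 is needed for growth beyond the bud stage, and loss of Spry2 or Spry4 permits extra teeth.

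The sequences upstream of 3 feedback genes, Spry1, Spry2 and Dusp6, are shown. These genes had their 3 highest values in the same libraries, as described below, and so did Spry4, for which no window was available. Each window holds the 250 bases before the RefSeq gene start (GRCm38.p6), and capitals mark GGAA, the core letters recognised by ETS factors, on either strand (TTCC when read on the opposite strand). The windows are chr3:37639697-37639946 on the forward strand for Spry1, chr14:105896820-105897069 on the reverse strand for Spry2 and chr10:99262981-99263230 on the forward strand for Dusp6.
Spry1: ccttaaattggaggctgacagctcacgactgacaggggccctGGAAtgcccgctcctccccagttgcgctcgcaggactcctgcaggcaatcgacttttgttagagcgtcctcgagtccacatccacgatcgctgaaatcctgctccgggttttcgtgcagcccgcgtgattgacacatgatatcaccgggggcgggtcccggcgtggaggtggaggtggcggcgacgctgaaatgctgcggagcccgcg
Spry2: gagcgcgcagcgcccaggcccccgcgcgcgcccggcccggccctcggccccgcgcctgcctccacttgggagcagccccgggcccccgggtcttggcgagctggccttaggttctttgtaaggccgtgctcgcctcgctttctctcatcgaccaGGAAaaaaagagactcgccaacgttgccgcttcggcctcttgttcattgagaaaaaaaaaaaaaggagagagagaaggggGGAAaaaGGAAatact
Dusp6: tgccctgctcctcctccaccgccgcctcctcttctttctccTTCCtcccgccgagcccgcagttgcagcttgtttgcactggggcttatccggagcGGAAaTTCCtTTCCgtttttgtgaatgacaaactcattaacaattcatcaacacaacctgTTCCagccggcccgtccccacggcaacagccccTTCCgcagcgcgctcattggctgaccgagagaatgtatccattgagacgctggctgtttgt
GGAA occurred 6 times upstream of Dusp6, 3 times upstream of Spry2 and 1 time upstream of Spry1. For Etv5, whose windows are not printed, GGAA occurred 0 times before the RefSeq gene start and 4 times in another window. GGAA says little by its presence alone. It is a short motif, present in 93.4% of 32851 mouse promoter windows of the same length, with a median of 3 matches. The longer form CGGAAG, which contains the core, occurred 1 time upstream of Dusp6 and not in the other two windows, against 13.6% of all windows. The letters CAGAC, a box bound by SMAD proteins, occurred in none of the 3 windows and in 42.2% of all windows. RefSeq windows matched 7 of the 10 genes by symbol.

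The libraries held 37591888 to 56575476 counts. Smad7, the targeted gene, had 21.4, 18.9 and 17.99 CPM (counts relative to the scaled library total) in wild-type libraries 1, 2 and 3. It stood at 2.13, 1.43 and 0.712 CPM in Smad7-/- libraries 1, 2 and 3, and no library went against its label. The tooth germ label fitted the markers: Krt5, a keratin of basal epithelium, averaged 4105 CPM and Sp6, a transcription factor of dental epithelium, 1648 CPM. The mesenchymal transcription factor genes Prrx1 and Barx1 averaged 91.5 and 71.4 CPM. Wild-type library 1 and Smad7-/- libraries 1 and 2 lay at -36.8 to -16.4 on the first principal component of all tested genes (32.9% of the variance), and the other 3 libraries at 16.7 to 26.8, a division that crossed genotype. No label gives a batch or date for it. Xist, the RNA of the inactive X, was at 195 CPM in wild-type library 1 and 365 CPM in Smad7-/- library 3, and the other 4 libraries carried the Y-linked gene Ddx3y.

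Levels of different genes were compared per kilobase of exon. Fgfr1, the receptor of mesenchyme and epithelium that many FGFs share, was the most abundant of the set, at 89.0 ± 6.48 CPM per kilobase in wild type (SD, n = 3). Fgfr2 followed at 34.6 ± 1.84 and Etv5 at 20.9 ± 2.19 CPM per kilobase. Neither of these receptors overlapped its lower neighbour in the order across the wild-type libraries. Dusp6 at 16.7 ± 2.79, Etv4 at 15.1 ± 4.52, Spry2 at 13.3 ± 3.79 and Spry1 at 13.2 ± 1.41 CPM per kilobase formed a group whose neighbours overlapped, as did Etv5 and Dusp6. Fgfr3 stood below them at 4.14 ± 0.518, Spry4 at 2.62 ± 0.377 and Fgfr4 at 0.151 ± 0.0620 CPM per kilobase. With the longest transcript as the length, Fgfr1 stood at 174, Fgfr2 at 80.7 and Fgfr3 at 6.97 CPM per kilobase, over 1.5 times higher, and only Dusp6 with Etv4 and Spry2 with Spry1 exchanged places.

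Fgfr1 (chromosome 8, 25518759 to 25575718, in RefSeq coordinates on GRCm38.p6, as for the genes below) was counted at 807, 928 and 902 CPM in wild-type libraries 1, 2 and 3 and at 909, 778 and 836 in Smad7-/- libraries 1, 2 and 3. The groups overlapped, with the lowest value in Smad7-/- library 2. The log2 fold change was -0.06 ± 0.11 (SE; edgeR adjusted p = 0.999), and the 95% interval ran from 0.814-fold to 1.13-fold.

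Fgfr2 (chromosome 7, 130162451 to 130266808) gave 378, 354 and 340 CPM in wild type and 417, 337 and 368 CPM in Smad7-/-. Smad7-/- libraries 1 and 2 were the highest and the lowest of all 6, so the mutant libraries enclosed the wild-type ones. The log2 fold change was 0.07 ± 0.10 (SE; edgeR adjusted p = 0.999; 95% interval 0.896-fold to 1.22-fold). GENCODE M21 annotates 17 protein-coding transcripts of Fgfr2 and 9 of Fgfr1, among them forms that differ in the ligand-binding part; the deposited counts pool all forms of a gene, so epithelial and mesenchymal forms were not separated here.

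Fgfr3 (chromosome 5, 33721724 to 33737068), a receptor known for restraining growth of cartilage, stood at 25.8, 29.9 and 33.15 CPM in wild type and at 32.8, 28.8 and 35.4 in Smad7-/-. Its lowest value was in wild-type library 1 and its highest in Smad7-/- library 3, and the groups overlapped (log2 0.13 ± 0.12 SE; edgeR adjusted p = 0.999; 95% interval 0.903-fold to 1.32-fold). The 8 cartilage markers summed to 560 to 809 CPM in wild type and 645 to 673 in Smad7-/-, with Matn1 at 0 in every library. Wild-type library 1 was the lowest in that sum. Col11a2 was at 232 CPM there, against 283 to 419 in the others, and Col9a3 at 222 CPM, against 211 to 270. Col2a1, the main cartilage collagen, was at its highest there, at 20.1 CPM. Acan, Col9a2 and Hapln1 were highest in Smad7-/- library 3, Col9a1 and Col11a2 in wild-type library 3 and Col9a3 in wild-type library 2. Their part in the Fgfr3 values was not tested.

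Fgfr4 (chromosome 13, 55152818 to 55168759), a receptor of liver and of muscle precursors, was near the limit of detection, with 25, 17 and 37 counts in wild type and 14, 15 and 71 in Smad7-/-. On the scale of CPM this was 0.488, 0.344 and 0.775 against 0.373, 0.345 and 1.23. Smad7-/- library 3 alone lay above the wild-type range, and the other mutant libraries lay within it. The log2 fold change was 0.31 ± 0.55 (SE; edgeR adjusted p = 0.999), with an interval from 0.532-fold to 2.91-fold, and it was -0.57 ± 0.51 without Smad7-/- library 3. Skeletal muscle markers summed to 2.75 to 5.05 CPM in wild type and to 1.30 to 2.35 in Smad7-/-, where library 3 was the lowest.

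Of the counts that fell on the 4 receptors, Fgfr1 took 66.6%, 70.7% and 70.7% in wild type and 66.9%, 68.0% and 67.4% in Smad7-/-. Fgfr2 took 31.2%, 27.0% and 26.7% against 30.7%, 29.5% and 29.7%. The ratio of Fgfr2 to Fgfr1 counts averaged 0.409 ± 0.0513 in wild type and 0.444 ± 0.0131 in Smad7-/- (SD, n = 3). Wild-type library 1 lay above all mutant libraries in that ratio, and wild-type libraries 2 and 3 below them.

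**Figure D1:**
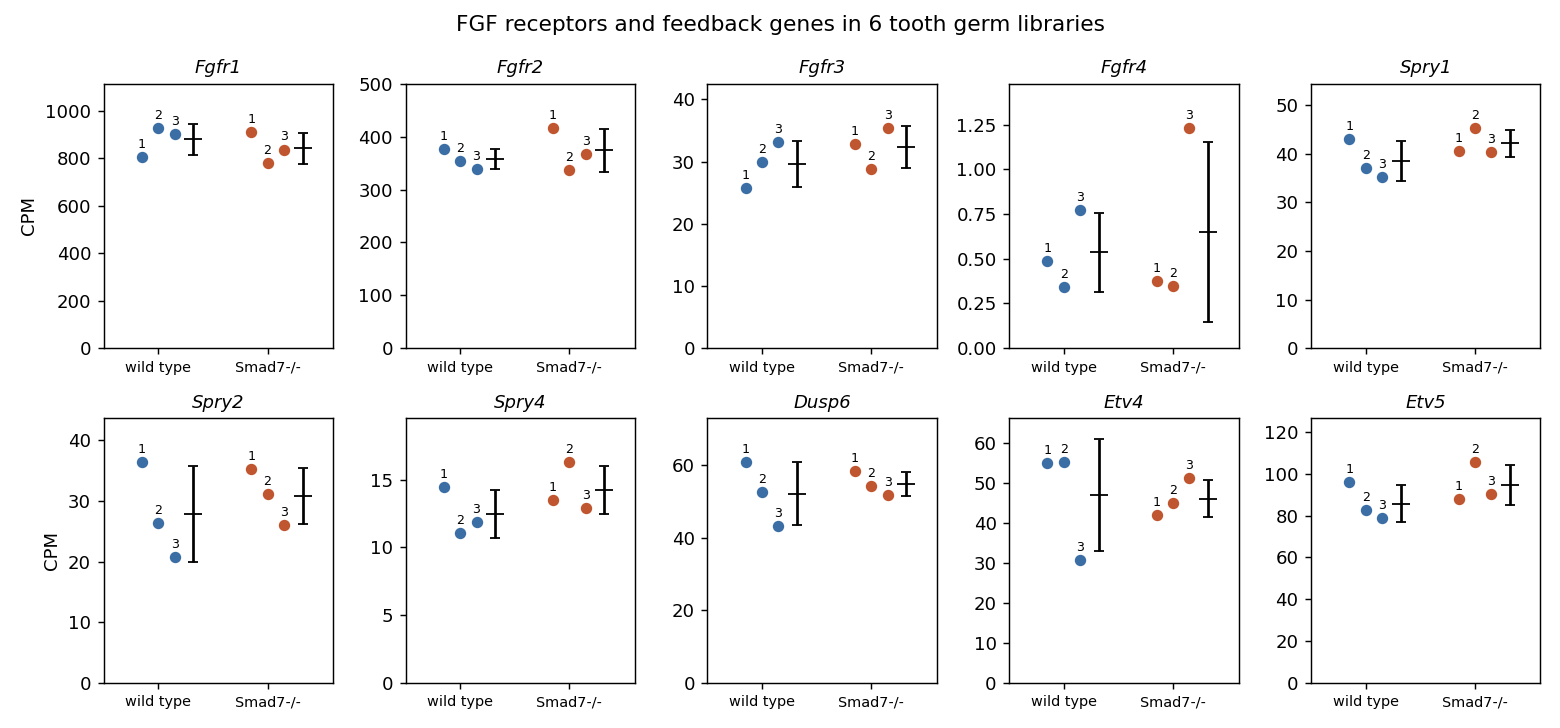
CPM (counts on TMM-scaled library sizes, linear axis from 0) of the 10 genes in 3 wild-type (blue) and 3 Smad7-/- (orange) libraries, numbered by replicate; black marks are the mean and the SD of each group. The groups overlap in every panel, and wild-type library 3 is the lowest point for 5 of the 6 feedback genes. The share of all tested genes lowest in that library was not taken.

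The Sprouty genes encode intracellular inhibitors of receptor tyrosine kinase signalling. Spry1 (chromosome 3, 37639947 to 37644599) stood at 43.1, 37.2 and 35.2 CPM in wild type and at 40.6, 45.4 and 40.4 in Smad7-/-. All mutant libraries lay between or above the wild-type values, with wild-type library 1 inside the mutant range (log2 0.13 ± 0.11 SE; edgeR adjusted p = 0.999; 95% interval 0.930-fold to 1.29-fold).

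Spry2 (chromosome 14, 105891947 to 105896819) varied more, with 36.3, 26.3 and 20.7 CPM in wild type against 35.2, 31.1 and 26.1 in Smad7-/-. The wild-type libraries held both the highest and the lowest value, and the group means of 27.8 ± 7.91 and 30.8 ± 4.59 (SD, n = 3) differed by less than either SD. The log2 fold change was 0.15 ± 0.20 (SE; edgeR adjusted p = 0.999; 95% interval 0.812-fold to 1.51-fold). Leaving out wild-type library 1 gave 0.38, and leaving out wild-type library 3 gave -0.03. It was 0.0391 without Smad7-/- library 1 and 0.25 without Smad7-/- library 3.

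Spry4 (chromosome 18, 38586247 to 38601347) was the least abundant feedback gene, with 14.5, 11.0 and 11.9 CPM in wild type and 13.5, 16.3 and 12.9 in Smad7-/-. Smad7-/- library 2 was the highest and wild-type library 1 lay among the mutant values. Its log2 fold change of 0.19 ± 0.15 (SE; edgeR adjusted p = 0.999; 95% interval 0.905-fold to 1.44-fold) was the highest among the feedback genes. Without any 1 library it ran from 0.0889 to 0.31, on the higher side throughout.

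Dusp6 (chromosome 10, 99263231 to 99267489) encodes the cytoplasmic phosphatase that inactivates ERK. It was measured at 60.7, 52.5 and 43.2 CPM in wild type and at 58.3, 54.1 and 51.8 in Smad7-/-. The 3 mutant values lay inside the wild-type range, so the spread among wild-type libraries (SD 8.75 CPM) exceeded the difference between the means of 52.1 and 54.7 CPM. The log2 fold change was 0.07 ± 0.12 (SE; edgeR adjusted p = 0.999; 95% interval 0.866-fold to 1.27-fold).

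Etv4 (chromosome 11, 101769747 to 101785310) and Etv5 (chromosome 16, 22381313 to 22439570) encode related ETS factors that carry FGF signals to the genome. Etv4 stood at 55.0, 55.2 and 30.8 CPM in wild type and 42.1, 45.1 and 51.2 in Smad7-/-. Wild-type library 3 was far below the other five, and wild-type libraries 1 and 2 were above every mutant library. The log2 fold change of -0.03 ± 0.21 (SE; edgeR adjusted p = 1.00; 95% interval 0.707-fold to 1.36-fold) became -0.26 ± 0.12 without wild-type library 3, with an adjusted p of 0.852 by edgeR. Etv5 stood at 95.9, 82.5 and 78.9 CPM in wild type and 88.0, 105 and 90.3 in Smad7-/-. Wild-type library 1 lay within the mutant range and the other wild-type libraries below it (log2 0.14 ± 0.11 SE; edgeR adjusted p = 0.999; 95% interval 0.934-fold to 1.30-fold). The ratio of Etv4 to Etv5 counts was 0.544 ± 0.141 in wild type and 0.491 ± 0.0706 in Smad7-/- (SD, n = 3).

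Between genotypes, then, 0 of the 10 genes passed in edgeR at an adjusted p under 0.05, where 0.0262% of all tested genes did (4 of 15284). At an unadjusted p under 0.05 there were 0 of 10 as well, against 5.14% of all genes, and DESeq2 and limma-voom called 0 of 10 at either level. DESeq2 called 0.351% of the genes for which it gave an adjusted p. For 0 of 10 genes did the ranges of the groups separate, where 8.88% of all tested genes separated. Of the log2 fold changes 8 were above 0 and 2 below, with a median of 0.13 beside a median of 0.00 over all tested genes. This median has no test here. For 9 genes, all except Fgfr4, the 95% interval lay within a 2-fold change in either direction; the widest of these upper limits was 1.51-fold, for Spry2. Intervals of this kind do not show that the genotypes were alike. A tooth germ holds several cell types, and a change in the share of a cell type cannot be told apart from a change in RNA per cell.

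**Figure D2:**
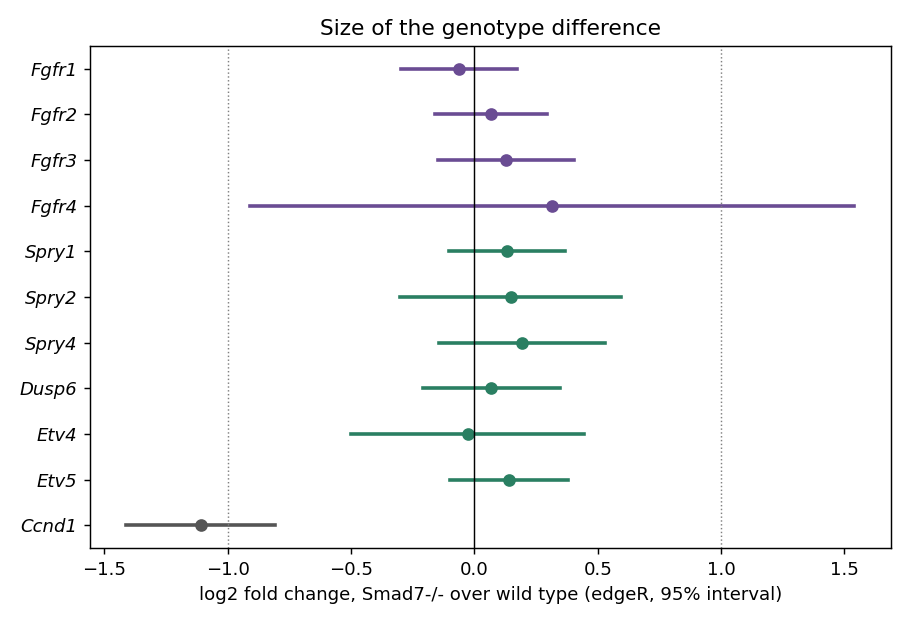
Log2 fold change of Smad7-/- over wild type with its 95% interval (edgeR, n = 3 libraries per group) for the 4 receptors (purple), the 6 feedback genes (green) and, for scale, Ccnd1 (grey); dotted lines mark a 2-fold change. Every interval of the 10 genes spans 0, and that of Fgfr4 is the widest, from -0.91 to 1.54.

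The feedback genes also varied among libraries of 1 genotype. Wild-type library 3 held the lowest value for 5 of the 6 (all except Spry4). The share of all tested genes that were lowest in that library was not taken, so this count has no background. The highest values were in Smad7-/- library 2 for 3 genes, wild-type library 1 for 2 and wild-type library 2 for 1. Summed over the 6 genes the level was 306, 265 and 221 CPM in wild type and 278, 297 and 273 CPM in Smad7-/-. The mutant sums lay inside the wild-type range. The receptor sum, of which Fgfr1 made up most, did not follow: it was 1210, 1313 and 1276 CPM against 1360, 1145 and 1241. Wild-type library 3 was the lowest for 0 of 4 receptors. Of the pathway lists described below, receptor partners and the adaptors and ERK cascade also had their lowest sums there, at 1383 and 2125 CPM. The other ERK feedback and output genes did so too, at 922 CPM, while the ligand sum was lowest in Smad7-/- library 2, at 62.9 CPM. Fgfr2 did fall from wild-type library 1 to wild-type library 3, at 378, 354 and 340 CPM, as the feedback sum did. The feedback sum per receptor count was 0.252, 0.202 and 0.173 in wild type and 0.204, 0.260 and 0.220 in Smad7-/-.

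For 4 of the 6 feedback genes the libraries also divided along the first principal component, and for Etv4 and Etv5 they did not. Spry1, Spry2, Spry4 and Dusp6 had their 3 highest values in the libraries on its negative side (wild-type library 1 and Smad7-/- libraries 1 and 2), as did 14.9% of all tested genes. This held for 4 of 6 feedback genes and 0 of 4 receptors, and it is a description without a test, since the component was drawn from the same counts. With the component as a covariate the log2 fold changes of Spry2 and Dusp6 were -0.10 ± 0.13 and -0.05 ± 0.11 (SE). Those of Spry1 and Spry4 stayed above 0, at 0.06 ± 0.10 and 0.08 ± 0.15 (SE), and none of the 10 genes passed.

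**Figure D3:**
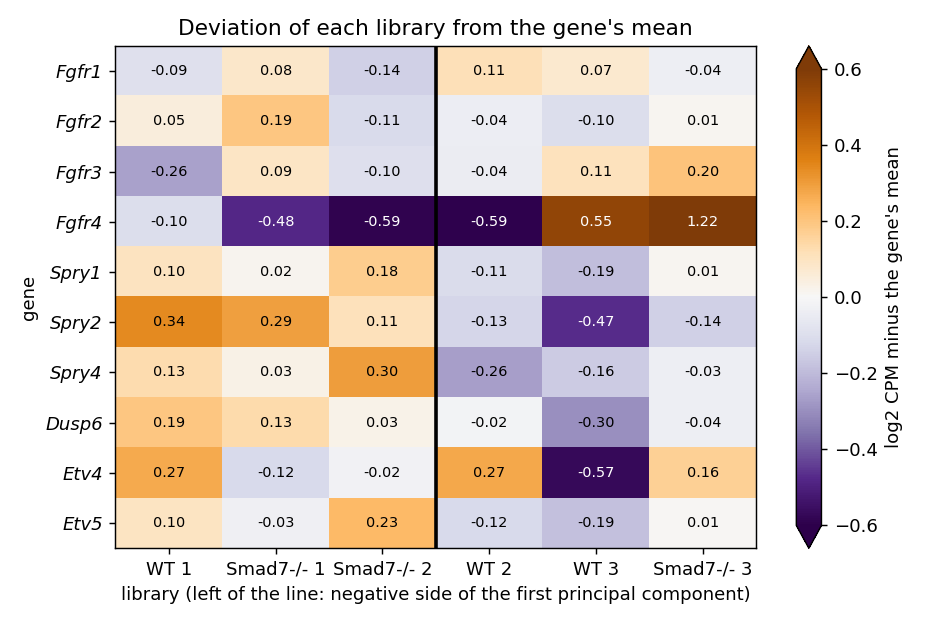
Log2 CPM of each gene minus its mean over the 6 libraries; columns are libraries, with those on the negative side of the first principal component left of the line, and colours beyond ±0.6 are saturated. Spry2 runs from 0.34 in wild-type library 1 to -0.47 in wild-type library 3, Etv4 drops to -0.57 in wild-type library 3, and Fgfr1 stays between -0.14 and 0.11.

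The spread of log2 CPM over the 6 libraries separated the steady genes from the variable ones. Fgfr1 and Fgfr2, with SDs of 0.10 and 0.11, and Spry1 and Etv5, with 0.13 and 0.15, lay below the median gene at 0.18. Dusp6 at 0.17 and Fgfr3 at 0.17 were close to it, and Spry4 at 0.20, Spry2 at 0.31, Etv4 at 0.32 and Fgfr4 at 0.74 were above it. From its highest to its lowest library Etv4 differed 1.79-fold and Spry2 1.75-fold, while Fgfr1 differed 1.19-fold. Cell-type markers were summed for the same libraries. Dental epithelium markers summed to 9589 to 10592 CPM in wild type and 8207 to 9938 in Smad7-/-, with 8 of 8 lower in the mean and 1 of 8 without overlap. Dental mesenchyme markers summed to 181 to 238 CPM against 296 to 311, with 8 of 8 higher and 7 of 8 without overlap between the groups. Macrophage markers summed to 83.1 to 117 against 147 to 157 CPM, with 6 of 6 higher and 5 of 6 without overlap, beside the 8.88% of all genes given above. None of these marker genes passed in edgeR over all genes; DESeq2 called 3, Prrx1, the macrophage growth factor receptor gene Csf1r and, named after its values were seen, the macrophage gene Cd68 (DESeq2 adjusted p = 0.00865, 0.00341 and 0.0300). Both the mesenchyme and the macrophage sum were lowest in wild-type library 2. None of the markers was at 0 in any library, and their part in the FGF values was not tested.

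The mean centred profile of the 6 feedback genes was compared with 10834 other genes at 5 CPM or more by the root mean square difference over the 6 libraries. The closest were Dclre1b, a DNA repair nuclease gene, at 0.0201, Gemin2, a gene of the complex that assembles splicing particles, at 0.0250, and Ctnnbip1, which encodes an inhibitor of beta-catenin, at 0.0315 (log2). Among other FGF pathway genes the nearest were Hs2st1, a heparan sulfate sulfotransferase gene, at rank 54 and Dusp7, another ERK phosphatase gene, at rank 161. Dusp6 itself lay at 0.0600 from the profile it helped to form and Etv4 at 0.21. The receptor Fgfr2, which had no part in forming it, lay closer than Etv4, at 0.156. Fgfr1, Fgfr3 and Fgfr4 lay farther, at 0.236, 0.281 and 0.756. The profile rests on 6 libraries, and the likeness of other genes to it was not tested.

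The rest of the pathway was read from 4 lists of 74 genes, of which 73 (all except Hras) were found by symbol and 61 were tested. The FGF ligand list had 10 of 18 genes tested, with 0 called, 6 higher and 4 lower and a median log2 fold change of 0.31; most ligands were scarce. At an unadjusted p under 0.05 in edgeR there were 4 of the 10, Fgf1 lower and Fgf2, Fgf7 and Fgf18 higher, against 5.14% of all genes. Ranges separated for 4 of the 10, Fgf2, Fgf7, Fgf16 and Fgf18, against 8.88%. Apart from Fgf1 these are named after their values were seen, and Fgf2, Fgf7 and Fgf18 averaged 0.162, 0.905 and 0.227 CPM in wild type and 0.586, 1.55 and 0.510 in Smad7-/-. Fgf1, the most abundant, stood at 37.4, 41.4 and 51.7 CPM in wild type and 29.9, 32.2 and 40.2 in Smad7-/- (log2 -0.35 ± 0.15 SE; edgeR adjusted p = 0.918). The groups overlapped by 1 library on each side. Fgf10, the mesenchymal ligand of the epithelial Fgfr2 form, averaged 8.35 ± 3.15 and 11.9 ± 3.81 CPM (SD, n = 3; log2 0.51 ± 0.30 SE).

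Receptor partners, among them the heparan sulfate enzymes, had 14 of 16 genes tested and 0 called, with 9 higher, 5 lower and a median of 0.08. Ext2 and Ndst1, which build and sulfate heparan sulfate, differed by 0.06 ± 0.10 and 0.13 ± 0.12 (log2, SE). Adaptors and the ERK cascade had 19 tested and 0 called, 12 higher and 7 lower, with a median of 0.03 and a range from -0.07 to 0.25. Ptpn11, the phosphatase SHP2 that relays receptor signals, differed by -0.04 ± 0.10 (log2, SE).

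Other ERK feedback and output genes had 18 of 20 tested, with 0 called higher and 1 lower, and a median of 0.04. The Ras regulator Rasa1 and the ETS factor gene Ets2 differed by -0.17 ± 0.10 and 0.05 ± 0.11 (log2, SE). The gene that passed was Ccnd1, which encodes cyclin D1 and responds to growth factors of several kinds. It stood at 22.1, 21.7 and 20.3 CPM in wild type and 9.50, 11.5 and 8.73 in Smad7-/-, with no overlap between groups (log2 -1.11 ± 0.14 SE; edgeR adjusted p = 0.0339). Its call ended without any single library (adjusted p from 0.0738 to 0.261 by edgeR), while its log2 fold change stayed between -1.23 and -1.03. By DESeq2 a second gene of the lists passed, Fgfbp3, an FGF carrier named here after its values were seen, with means of 6.73 ± 1.36 CPM in wild type and of 11.4 ± 0.283 CPM in Smad7-/- (SD, n = 3; DESeq2 adjusted p = 0.0158; edgeR adjusted p = 0.571).

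**Figure D4:**
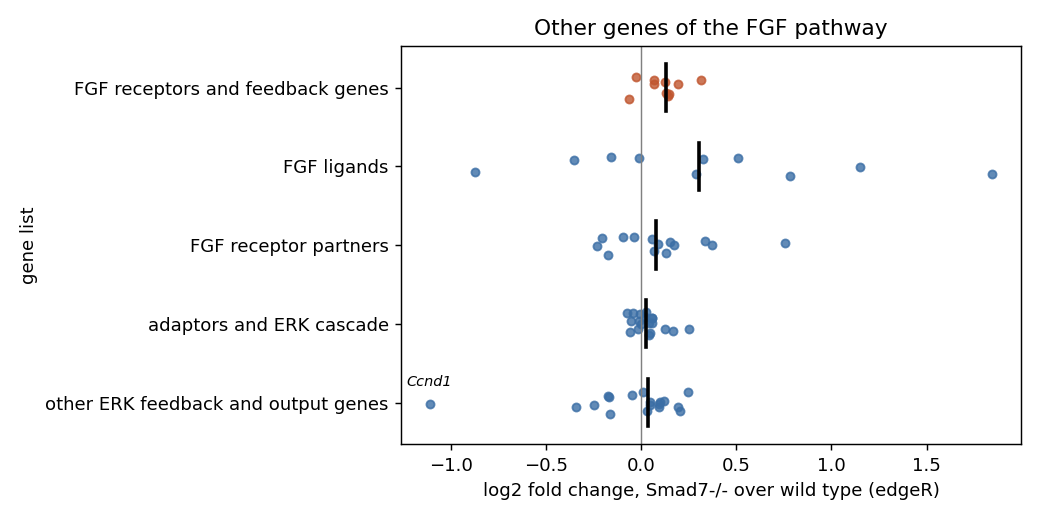
Log2 fold change of Smad7-/- over wild type (edgeR) for each tested gene of the 10-gene set (orange) and of the 4 pathway lists (blue), with the list median as a black bar; vertical scatter within a row carries no meaning. Members of the ERK cascade lie between -0.07 and 0.25, the ligands spread from -0.87 to 1.84, and Ccnd1 at -1.11 stands apart in its list.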

How the data were processed

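RNA was taken from tooth germs with an RNeasy kit, and libraries were made with a TruSeq RNA kit from 1 ug of total RNA, per the labels' protocols. Reads were aligned with HISAT2 and counted with featureCounts on mm10, per the submitters' processing notes, which also name DESeq2; versions, annotation and strand setting are not given in the sources used here. The deposited values are raw counts per gene symbol, 1 table per library. A spreadsheet had rewritten 27 symbols as dates; none is a member.

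Counts were fitted with edgeR 4.0.16 in R 4.3.3 on all 6 libraries without covariates: filterByExpr (minimum count 10, total 15), TMM factors, the robust quasi-likelihood F-test, and Benjamini-Hochberg adjustment over 15284 genes at 0.05. The error of a CPM mean is the SD of its libraries. That of an edgeR log2 fold change is an SE worked back from the test, the absolute log2 fold change over the square root of the F statistic. The 95% intervals use the total degrees of freedom of each gene, residual plus those that the fit borrows from other genes. Counting error was largest for Fgfr4 (14 to 71 counts); without molecular identifiers, PCR copies count as separate reads. Log2 CPM for profiles used a prior count of 0.5. Exon lengths came from GENCODE M21, promoters and spans from RefSeq.

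Members and lists were chosen with earlier results of these data known. Named genes were all members, genes of each pathway list past the threshold, the 2 most abundant of each list, Smad7, and the 3 genes at 5 CPM or more closest to the feedback profile; of the marker lists only those bearing on a result are given, and 1 gene that the rule selects is not reported here. Alternatives were DESeq2 1.42.0, limma-voom (3.58.1), other size factors and filters, a fit that is not robust, covariates, and each library left out. Scripts were tested on simulated data. Figures used matplotlib 3.10.9.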

Additional observations from a re-analysis of the deposited data

How the results depend on the processing

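Under all 17 alternatives 0 of the 10 FGF receptor and feedback genes passed, Fgfr4 being untested under the filter at 5 CPM. The lowest adjusted p of a member was 0.291, for Spry2 with dental epithelium markers as a covariate (log2 0.53, unadjusted p = 0.00851), and Etv5 was at 0.27 there (unadjusted p = 0.0454). Leaving out wild-type library 1 put Spry2 at an unadjusted p of 0.0376 in edgeR. Fgfr1, Spry1, Spry4 and Etv5 kept their sign in every alternative.

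Signs turned in uncalled genes. Etv4 was at 0.0215 by limma-voom, 0.0139 with the replicate block, 0.15 with the epithelium covariate, and 0.0975, 0.10 and 0.0338 without wild-type library 1, wild-type library 2 and Smad7-/- library 1. Fgfr3 and Fgfr4 were at -0.0588 and -0.84 with the epithelium covariate. With the first principal component as a covariate Spry2, Dusp6 and Fgfr2 were at -0.10, -0.0528 and -0.000133. Spry2 and Dusp6 were at -0.0259 and -0.0490 without wild-type library 3, Fgfr2 at -0.0179 without Smad7-/- library 1 and Fgfr4 at -0.57 without Smad7-/- library 3. With 1 library left out the highest values were 0.19 for Dusp6, 0.14 for Fgfr2, 0.68 for Fgfr4 and 0.38 for Spry2, and the lowest for Etv4 was -0.26. The cause was not tested.

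The count of all genes called, 4, became 59 by DESeq2, 2 under the filter at 5 CPM, and 1 to 7 without 1 library (2, 1 and 7 without Smad7-/- libraries 1, 2 and 3). The pathway count of 1 (Ccnd1) became 2 by DESeq2 and 0 under that filter, with sex, the first principal component or the epithelium as a covariate, and without any 1 library. By the longest transcript Fgfr1, Fgfr2 and Fgfr3 stood at 174, 80.7 and 6.97 CPM per kilobase.

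Same-numbered libraries had residual correlations of 0.144, -0.0216 and 0.0681. No label says whether a number marks a shared litter or day, and so few libraries cannot decide it. The SE of the Spry2 log2 fold change was 0.11 with the replicate block and 0.20 without it. For Etv4 the SE was 0.24 with the block and 0.21 without it. The replicate block called 4 genes, 1 pathway gene and 0 of the 10 members.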

Other observations

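The immediate early genes respond to ERK within minutes and also to handling of tissue. Of this list 8 of 8 genes were tested, 4 higher and 4 lower, with 0 called by edgeR. At an unadjusted p under 0.05 in edgeR there was 1 of 8, against 5.14% of all genes. That gene, named after its values were seen, was Dusp1, a phosphatase of MAP kinases, at 0.36 ± 0.13 (log2, SE). Ranges of the groups separated for 3 of 8, against 8.88% of all genes. The abundant members Ier2 and Junb, both transcription regulators, differed by -0.01 ± 0.09 and -0.04 ± 0.10 (log2, SE). Summed over the list the level was 97.4 to 108 CPM in wild type and 107 to 117 in Smad7-/-, with wild-type library 3 the lowest. The sums of the receptor partners and of the adaptors and ERK cascade were lowest there too (1383 and 2125 CPM). The ligand sum was not.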
